A study of Mus musculus with 2 samples.

Results

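The imprinted Dlk1-Dio3 locus of the mouse carries a group of miRNAs between the start of Meg3 and the end of Rian, and 10 of the 620 miRNA precursors listed in E9.5 WT hearts belonged to it. They were chosen by position alone, as every listed precursor on the plus strand of chromosome 12 (mm9) between bases 110779000 and 110827000, called the Meg3 side here, or between bases 110839000 and 110900000, the Rian part. The Meg3 side held miR-770, miR-673, miR-493, miR-337, miR-540, miR-665 and miR-3070, and the Rian part held miR-341, miR-1188 and miR-370. Replicate 1 listed all 10, and replicate 2 listed 9, without miR-3070.

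The libraries came from hearts of wild type C57BL/6 embryos at embryonic day 9.5, with no treatment and no second genotype or stage, in 2 replicates. Total RNA was extracted with TRIZOL, small RNA libraries were made with the TruSeq kit, and single-end reads of 50 nt were sequenced on an Illumina Hiseq. Neither the number of hearts behind each library nor whether the libraries came from separate litters was stated, so every p-value below measures only the difference between these 2 libraries beyond read counting. The whole heart was used, so a lower number of cells of a type and less miRNA in each cell cannot be told apart.

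Dlk1-Dio3 is a domain in which protein-coding genes are expressed from the paternal chromosome and long noncoding RNAs from the maternal one. Meg3, the Rtl1 antisense RNA, Rian and Mirg are the maternal noncoding RNAs. They lie on the same strand, and miRNAs are cut from them or from transcripts between them by the microprocessor and Dicer, the former a complex of Drosha and Dgcr8. Each hairpin has a 5p and a 3p arm, and the arm that is loaded into an Argonaute protein finds target mRNAs mainly by pairing through its seed, bases 2 to 8.

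The mature miRNAs are printed 5′ to 3′ as the deposited tables give them, in order along the chromosome, because every comparison below refers to them. Capitals mark the seed.
miR-770-3p: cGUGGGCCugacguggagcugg
miR-673-3p: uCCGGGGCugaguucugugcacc
miR-493-3p: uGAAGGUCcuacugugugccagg
miR-337-5p: cGGCGUCAugcaggaguugau
miR-540-3p: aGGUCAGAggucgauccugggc
miR-665-3p: aCCAGGAGgcugaggucccuuac
miR-3070-3p: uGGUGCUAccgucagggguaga
miR-341-3p: uCGGUCGAucggucggucgg
miR-1188-5p: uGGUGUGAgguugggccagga
miR-370-3p: gCCUGCUGggguggaaccugg

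The 10 seeds were all different. None was shared with the mature arm of any other listed precursor, so the group held no seed family of its own and had no partner of the same seed among the miRNAs listed in these hearts. Among 1679 mature mouse miRNAs of RefSeq (GRCm38.p6), the seed of miR-540-3p also occurred in miR-6915-5p and that of miR-3070-3p in miR-3070-2-3p. On the weaker arms, miR-370-5p had the same seed as miR-1193-3p, a listed miRNA, and miR-673-5p the same as miR-6985-3p. Every one of the 20 arms matched the genome exactly at 1 place, except miR-3070-5p, which matched at 2 places, both on the Meg3 side. The search covered these full arm sequences on the autosomes, X and Y. Whether shorter or shifted reads had a second perfect origin was not tested. Where the sequence of an arm differed between the replicates, that of replicate 1 was searched.

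All 10 hairpins were matched by name in RefSeq, and the 10 mature arms began at the same base as the RefSeq sequence. The 3′ ends were less uniform. Of the 10, 5 ended where RefSeq ends, miR-540-3p was 2 bases longer and miR-665-3p 3 bases longer, and miR-337-5p, miR-341-3p and miR-370-3p were each 1 base shorter. The seed was thus the RefSeq seed in every case.

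By the GENCODE vM1 annotation, Meg3 spans chr12:110779211-110809936 and Rian chr12:110842155-110899919, both on the plus strand. The hairpin of miR-770 (chr12:110801920-110801975) lay inside Meg3, 22709 bases from its start. It was exonic in 1 of 3 transcripts that span it and intronic in the others. The other 6 hairpins of the Meg3 side lay downstream of the annotated end of Meg3, in sequence annotated to no host gene. miR-673 (chr12:110810214-110810276) was 278 bases past that end, and miR-493 (chr12:110818453-110818515) was 8517 bases past it. miR-337 (chr12:110824028-110824080), miR-540 (chr12:110824295-110824353) and miR-665 (chr12:110824541-110824600) formed a run of 573 bases with gaps of only 214 and 187 bases, and miR-3070 (chr12:110826169-110826230) followed 1568 bases later. All hairpins of the Rian part were intronic in Rian, a host RNA that is also known for its snoRNAs. miR-341 (chr12:110849727-110849785) and miR-1188 (chr12:110850051-110850110) were 265 bases apart, and miR-370 (chr12:110856480-110856535) lay 6369 bases further on.

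**Figure D1:**
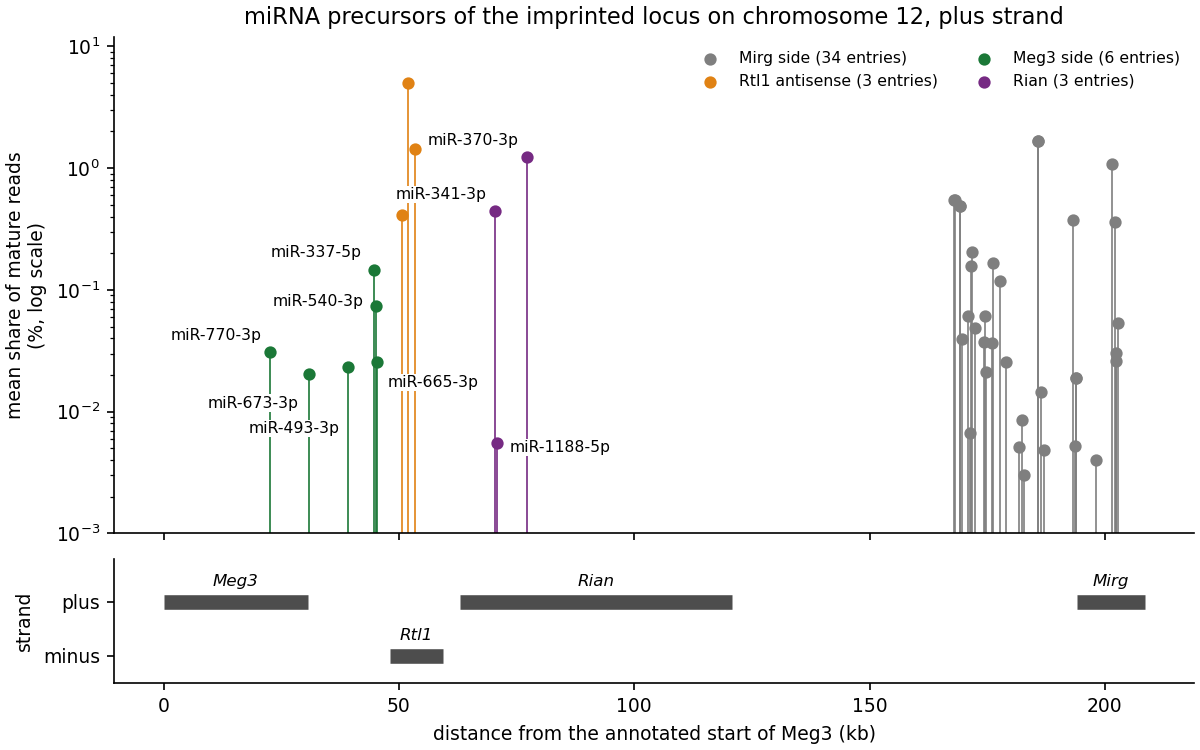
The upper panel plots the mean share of mature reads over the 2 replicates (percent, log scale) of each precursor listed in both, against the distance of the precursor from the annotated start of Meg3 in kb. Green marks the 6 such precursors of the Meg3 side, purple the 3 of Rian, orange the 3 antisense to Rtl1 and grey the 34 towards Mirg. Among the grey points, miR-379, miR-411, miR-381 and miR-485 each appear more than once at nearly the same position. Bars in the lower panel are the annotated genes by strand. miR-341-3p and miR-1188-5p nearly coincide on the axis yet differ 80.7-fold, and miR-370-3p was the highest of the purple and green points.

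Values are the counts of reads on the mature arm. Shares are percentages of the sum of such reads over all listed precursors, 4942257 for replicate 1 and 4806179 for replicate 2. Reads of a mature sequence listed at more than 1 precursor enter this sum more than once. With each mature sequence counted once, all 9 shares of the group were higher. That of miR-370-3p rose from 1.23% to 1.69% and that of miR-341-3p from 0.443% to 0.607%. Each share of 1 library has a 95% Wilson interval, which covers counting error only, because reads copied by PCR without molecular identifiers are not independent molecules. The cardiac label of the tissue was checked against marker miRNAs, each taken by its highest entry. All 5 cardiac muscle miRNAs of a marker list were listed in replicate 1 and 4 in replicate 2, where miR-208a was missing, and their summed shares were 11.4% and 11.9%. Of these, miR-1a and miR-133a were each listed at 2 precursors, and both entered the total although only the higher was taken here. The cardiac sums are therefore lower than they would be as shares of distinct mature sequences. The endothelial marker miR-126a had 2.9% and 2.87%, the smooth muscle pair miR-143 and miR-145a summed to 7.94% and 6.82%, and 3 erythroid markers to 0.113% and 0.14%. Liver (miR-122, 0.0421% and 0.0554%), neural (0.00484% and 0.0037% summed over miR-124 and miR-9) and epithelial markers (0.0169% and 0.0167% over 3) were low. Of these lists, miR-144 was listed only in replicate 2, and miR-124 and miR-141 only in replicate 1. The part of these cell types in the levels below was not tested.

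Together the 10 precursors had 96613 mature reads in replicate 1 and 98333 in replicate 2. That was 1.95% and 2.05% of the mature reads, 2.0% ± 0.064 (SD, n = 2). The Rian part supplied most of it, with 81275 and 82511 reads from 3 precursors, against 15338 and 15822 reads from those of the Meg3 side. Rian precursors thus gave 84.1% and 83.9% of the reads of the group. The median precursor of the Rian part had a mean share of 0.443%, that of the Meg3 side 0.0282%, and that of all precursors listed in both replicates 0.00849%.

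miR-370-3p was the highest of the group and alone supplied 61.6% ± 1.0 (SD, n = 2) of its reads. It had 60208 reads in replicate 1 and 59847 in replicate 2, shares of 1.22% and 1.25% (1.23% ± 0.019, SD, n = 2) and rank 18 of the 471 precursors listed in both replicates. Repeated listings of a miRNA each hold a place in that order, so this rank and those below would be higher among distinct miRNAs. In that order miR-370-3p stood between miR-434-5p, cut from the Rtl1 antisense RNA (1.29% and 1.58%), and the precursors of the muscle miRNA miR-133a-3p (1.23% and 1.19%). The replicates of miR-370-3p overlapped in range with those of miR-133a-3p and lay below those of miR-434-5p.

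miR-341-3p followed with 20794 and 22401 reads, shares of 0.421% and 0.466% (0.443% ± 0.032, SD, n = 2) and rank 41 in each replicate. Its mature arm is built from a repeat, as the hairpin shows, here with both arms in capitals and the loop in lower case.
miR-341: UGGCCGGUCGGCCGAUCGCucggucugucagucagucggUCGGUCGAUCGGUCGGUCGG
The motif UCGG, read on the given strand and chosen after the sequence had been seen, occurred 4 times in the mature arm and 7 times in the hairpin. Of 502 distinct mature sequences in the tables, 21 (4.18%) held it at least once and 2 at least 2 times, miR-341-3p included in both counts.

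miR-1188-5p, the other miRNA of the Rian introns, was the lowest of the group listed in both replicates. It had 273 and 263 reads, shares of 0.00552% and 0.00547% (0.0055% ± 3.7e-05, SD, n = 2). Its hairpin lies beside that of miR-341, yet miR-341-3p had 76.2 times its reads in replicate 1 and 85.2 times in replicate 2. To set that difference against others, the same ratio was taken for all 76 pairs of adjacent precursors on a strand that lie at most 1000 bases apart and differ in mature sequence, a limit chosen with the values known. The median pair differed 3.66-fold, with quartiles of 2.06 and 12. Of the 76 pairs, 3 (3.95%), this pair included, differed by at least the 80.7-fold of miR-341-3p over miR-1188-5p.

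On the Meg3 side miR-337-5p was the highest. It had 7395 and 6845 reads, shares of 0.15% and 0.142% (0.146% ± 0.0051, SD, n = 2) and rank 75 by their mean. Its neighbour miR-540-3p had 3508 and 3678 reads, shares of 0.071% and 0.0765% (0.0738% ± 0.0039, SD, n = 2). The next in line, miR-665-3p, had 1019 and 1472 reads, shares of 0.0206% and 0.0306% (0.0256% ± 0.0071, SD, n = 2). Levels therefore fell along this run in both replicates, 1.98-fold from miR-337-5p to miR-540-3p and 2.88-fold from there to miR-665-3p. Steps of this size were common, since 80.3% and 60.5% of the 76 adjacent pairs differed by at least as much.

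The 3 miRNAs closer to Meg3 were lower than miR-337-5p and miR-540-3p and nearer to each other. miR-770-3p, from within Meg3, had 1315 and 1671 reads, shares of 0.0266% and 0.0348% (0.0307% ± 0.0058, SD, n = 2). miR-493-3p had 1084 and 1193 reads, shares of 0.0219% and 0.0248% (0.0234% ± 0.002, SD, n = 2). miR-673-3p had 1014 and 963 reads, shares of 0.0205% and 0.02% (0.0203% ± 0.00034, SD, n = 2). The ranges of miR-770-3p and miR-665-3p overlapped, although miR-770-3p was the higher in each library, by 1.29 and 1.14 times. miR-665-3p and miR-493-3p changed order between the libraries, with ratios of 0.94 and 1.23. The replicates of miR-493-3p lay above those of miR-673-3p, but the means differed only 1.15-fold. Counting all reads of a precursor changed this order, since miR-493 then had 0.0398%, above miR-770 at 0.031%, miR-673 at 0.0301% and miR-665 at 0.025%.

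miR-3070-3p had 3 reads on each arm in replicate 1, a mature share of 6.07e-05% with an interval from 2.06e-05% to 0.000178%, and was not listed in replicate 2. The 3 reads equal the limit that a count of 0 allows, so its presence in these hearts was not detectable with confidence at this depth. Across the 9 precursors listed in both replicates, the mean share spanned a range of 224-fold, from miR-1188-5p to miR-370-3p. All neighbours in the order had separate ranges apart from the overlaps around miR-665-3p.

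**Figure D2:**
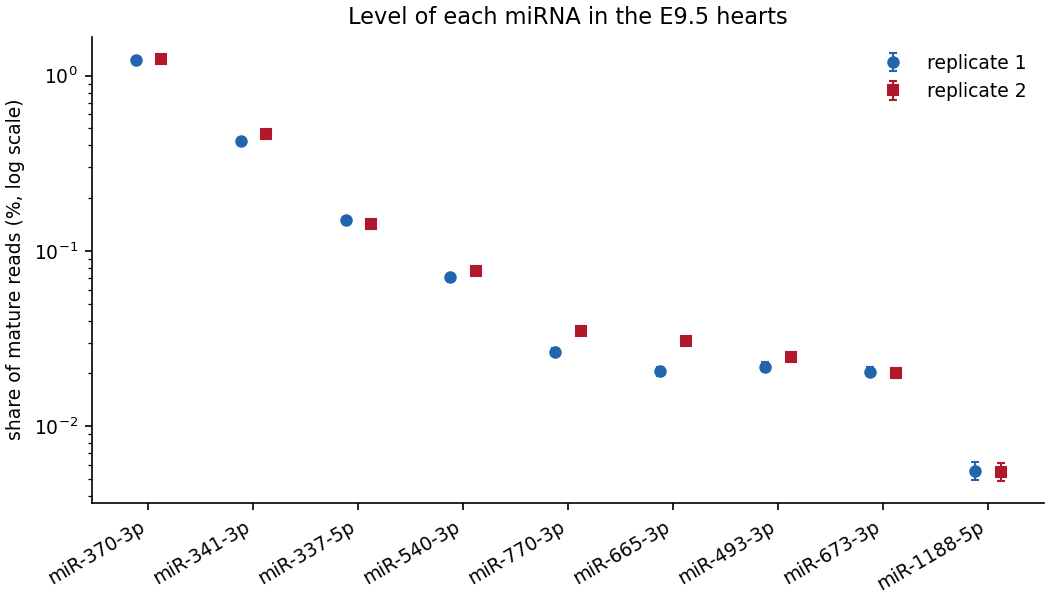
Share of mature reads (percent, log scale) of the 9 miRNAs listed in both replicates, ordered by their mean, with circles for replicate 1 and squares for replicate 2 and bars for the 95% Wilson interval of each library. miR-370-3p lies above 1% in both replicates, the 4 miRNAs from miR-770-3p to miR-673-3p lie between 0.02% and 0.0348%, and miR-1188-5p lies below them at 0.00552% and 0.00547%.

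Compared with the rest of the locus, the group took a modest share. The 3 precursors antisense to Rtl1, a retrotransposon-derived gene whose mRNA they are known to cleave, summed to 6.38% and 7.32% of mature reads. The group had 0.306 and 0.28 times their reads. The 36 listed precursors on the Mirg side summed to 8.9% and 8.39%, and the group had 0.22 and 0.244 times as many. These 36 held only 32 distinct mature sequences, since miR-379, miR-411, miR-381 and miR-485 were each listed more than once, at nearly the same position. Reads of these miRNAs thus entered the Mirg-side sum more than once, and its shares are too high to that extent. With each mature sequence counted once, the mean ratio was 0.339 instead of 0.232. Per listed precursor, the median mean share was 1.43% antisense to Rtl1, 0.0441% on the Mirg side, repeated listings included, and 0.0307% in the group. The difference from the Mirg side per precursor is small beside the 224-fold range within the group.

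The mature sequences of the group were rich in G and C, a property that the choice by position did not use. Their GC content ran from 56.5% to 72.7% with a median of 62.8%. The median of all 502 distinct mature sequences was 50%, and all 10 of the group lay above it. Of the 32 distinct mature sequences of the Mirg side, 9 lay above it and their median was 47.6%, with a range of 25% to 68%. All 3 antisense to Rtl1 lay above it, with a median of 57.1%. GC content was therefore higher towards Meg3 and Rian than towards Mirg, while the Rtl1 antisense miRNAs, which lie between the parts of the group, shared that side. No test was run on these values, since precursors of a locus are not independent of each other.

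The hairpins had a median folding energy of -0.47 kcal/mol per base by RNAfold, against -0.392 over all precursors and -0.382 on the Mirg side. The lower value came mainly from the Meg3 side, with a median of -0.49. The Rian part, at -0.4, lay close to all precursors, and the median antisense to Rtl1 was -0.375. By this measure miR-493 (-0.371) and miR-1188 (-0.383) were less stably folded than the median precursor, and the other 8 more stably. The first base was U in 5 of the 10 mature sequences (50%), close to the 48.6% of all distinct mature sequences.

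**Figure D3:**
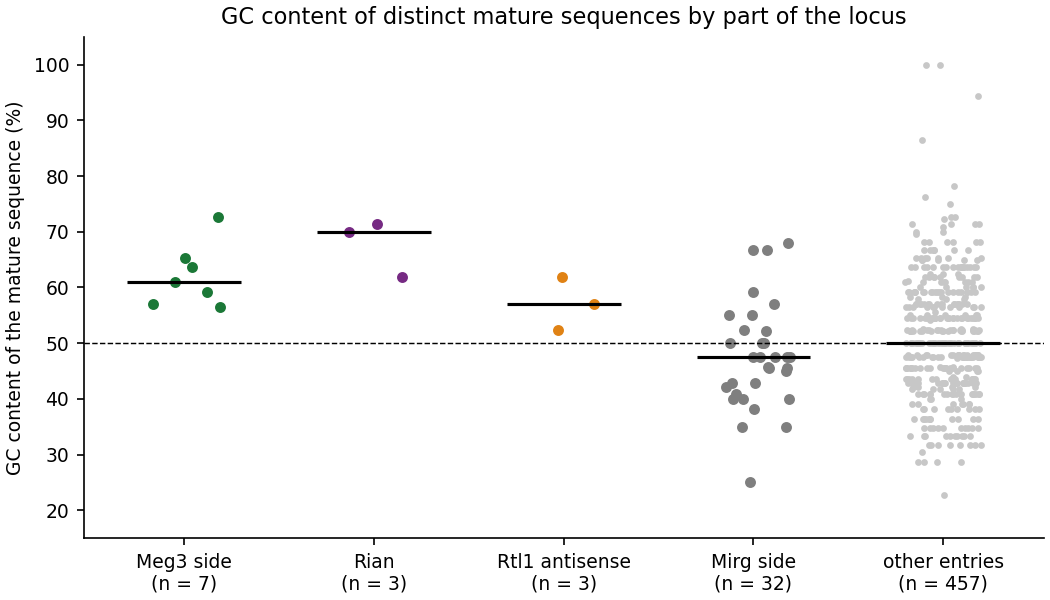
GC content (percent) of each distinct mature sequence, by part of the locus, with black bars for the median of each part and a dashed line at 50%, the median of all 502. All 7 points of the Meg3 side, 3 of Rian and 3 antisense to Rtl1 lie above the line, whereas 9 of 32 on the Mirg side do.

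The arms of a hairpin are paired before one is kept, so the reads on the other arm, the star arm, show how strongly one was favoured. In 8 of the 10 hairpins the tables placed the mature arm at 3p (80%), against 52.6% of all 620 listed, some of them repeated listings. The exceptions were miR-337 and miR-1188. The 8 include miR-3070, which showed no preferred arm, with 3 reads on each in replicate 1 only. The median mature arm of the 9 hairpins listed in both replicates took 98.4% of the reads of both arms, near the 99.1% of all hairpins, and 2 of 9 (22.2%) were below 90% as were 22.5% of all. No loop reads were counted for any of them.

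The range behind that median was wide. At one end, the star arm of miR-341 had 1 read in each replicate, 0.00481% and 0.00446% of its arm reads, with upper limits of 0.0272% and 0.0253%. In replicate 1 that read began 4 bases before the RefSeq start, and the 5p sequence differed between the replicates. miR-665 had 5 and 3 star reads (0.488% and 0.203%), and miR-370 had 346 and 331 (0.571% and 0.55%). The star arms of miR-337 and miR-540 were likewise weak, with 74 and 64 reads (0.991% and 0.926%) and 56 and 58 reads (1.57% and 1.55%). miR-770-5p had 55 and 51 reads, 4.01% and 2.96% of its arm reads.

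At the other end were miR-493 and miR-673, neighbours between Meg3 and miR-337, which kept both arms. miR-493-5p had 781 and 918 reads, 41.9% and 43.5% of the arm reads of its hairpin. miR-673-5p had 469 and 567 reads, 31.6% and 37.1%. Their 5p arms carry seeds unlike those of the 3p arms, as the second arms and the hairpin of miR-493 show, with seeds in capitals in the first pair of lines and both arms in capitals in the last. The 5p sequence of miR-673 differed between the replicates, and that of replicate 1 is printed.
miR-493-5p: uUGUACAUgguaggcuuucau
miR-673-5p: cUCACAGCucugguccuuggagc
miR-493: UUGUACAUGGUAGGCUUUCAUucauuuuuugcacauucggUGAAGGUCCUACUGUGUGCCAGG
Each of these hairpins therefore supplied reads of both arms in these hearts, with the 5p seed of miR-673 given for replicate 1 only. The other hairpins of the group with more than 1000 mature reads in both replicates supplied almost only the mature arm.

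Arm use needs no scaling between libraries, and was compared between the replicates by Fisher's exact test with Benjamini-Hochberg adjustment over 377 hairpins, of which 8.75% were called at an adjusted p under 0.05. Of the group, 2 of 9 were called. The star share of miR-673 was 31.6% (interval 29.3% to 34.0%) in replicate 1 and 37.1% (34.7% to 39.5%) in replicate 2, with an exact adjusted p of 0.024. That of miR-1188 was 0.727% (0.2% to 2.61%) and 5.05% (3.03% to 8.3%), from 2 and 14 star reads, with an exact adjusted p of 0.043. The star sequences of miR-673 and miR-1188 were not the same in both replicates. For miR-493 the intervals overlapped, 39.7% to 44.1% and 41.4% to 45.6%.

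**Figure D4:**
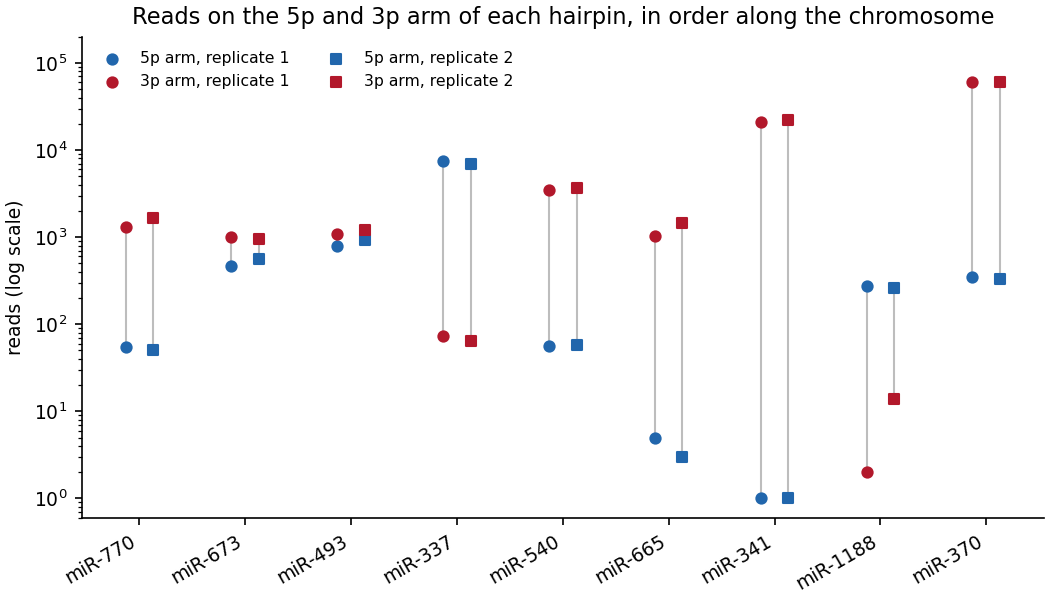
Reads (log scale) on the 5p arm (blue) and the 3p arm (red) of the 9 hairpins listed in both replicates, in order along the chromosome, with circles for replicate 1 and squares for replicate 2 and a grey line joining the arms of a hairpin. The lines of miR-673 and miR-493 are short, and that of miR-341 runs from 1 read to 20794 and 22401.

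With 1 group of samples, no conditions could be compared, and the remaining comparison is between the replicates. Each precursor was tested by the exact binomial test on its mature reads against the totals of the libraries, adjusted over 431 precursors, of which 41.1% were called. Of the group, 7 of 9 were called, 6 higher in replicate 2 and 1 higher in replicate 1, where 27.6% and 13.5% of all precursors were called in these directions. The direction depended on the scaling. Of all calls, 67.2% were higher in replicate 2 when scaled by totals, against 48.3% with TMM factors and 44.3% with DESeq2 size factors, and with either of these the group had 3 calls higher in replicate 2 and 2 higher in replicate 1. The absolute log2 ratio of the replicates had a median of 0.11 in the group and 0.19 over all tested precursors, so most members differed little although many were called.

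miR-665-3p differed most, with a log2 ratio of replicate 2 over replicate 1 of 0.57 (interval 0.45 to 0.69, exact adjusted p 9.7e-22), larger in size than 89.6% of all tested precursors. miR-770-3p came next at 0.39 (0.28 to 0.49, exact adjusted p 2.1e-12). Their coefficients of variation were 27.6% and 18.8%. miR-341-3p (0.15), miR-493-3p (0.18) and miR-540-3p (0.11) were also higher in replicate 2, but the last 2 were not called with TMM or DESeq2 factors. miR-337-5p was lower there at -0.07 (-0.12 to -0.02, exact adjusted p 0.0097). miR-370-3p was called at 0.03 (exact adjusted p 0.00052) by totals and at -0.03 and -0.04 with TMM and DESeq2 factors, so its direction is not settled, whereas its share had a coefficient of variation of only 1.55%. miR-673-3p and miR-1188-5p were not called, at -0.03 (-0.16 to 0.09) and -0.01 (-0.26 to 0.24).

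The close neighbours miR-337-5p and miR-665-3p differed in their ratio between the replicates, a value that needs no scaling. miR-337-5p had 7.26 times the reads of miR-665-3p in replicate 1 and 4.65 times in replicate 2. In contrast, miR-370-3p over miR-341-3p was 2.9 and 2.67, and miR-673-3p over miR-1188-5p 3.71 and 3.66. miR-770-3p over miR-673-3p was 1.3 and 1.74, so ratios without miR-665-3p also varied.

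**Figure D5:**
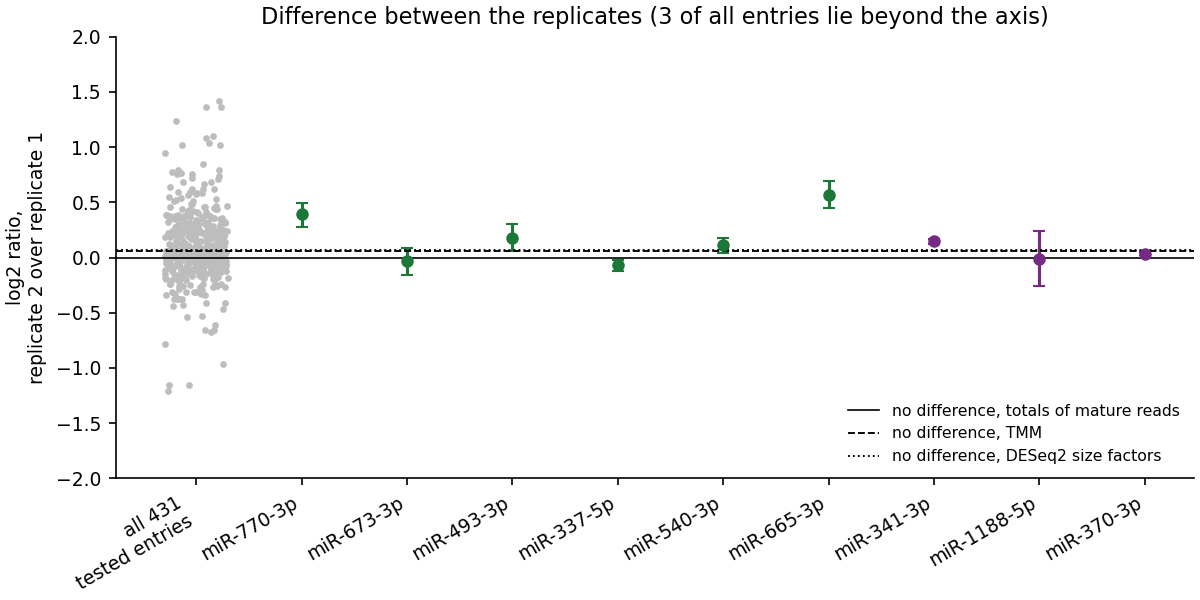
The log2 ratio of replicate 2 over replicate 1, scaled by totals of mature reads, for all 431 tested precursors (grey, of which 3 lie beyond the axis) and for the 9 miRNAs of the group, with 95% intervals. The dashed and dotted lines show where no difference would lie with TMM and DESeq2 factors, and miR-370-3p at 0.03 falls between these lines and 0.

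miRDeep2 scores each hairpin by how well its reads match Drosha and Dicer products. In part of the group the score did not follow the read count. In each replicate the scores of miR-370, miR-540, miR-493, miR-673, miR-770 and miR-665 had the same order as their reads on both arms. They ran from 30000 for miR-370, and 1800 and 1900 for miR-540, to 520 and 750 for miR-665. By contrast, miR-341 scored 2.2 and miR-337 2.5 in each, with more reads than miR-540, and miR-1188 scored 2 in each. Of the 187 precursors with at least 1000 mature reads in each replicate, 55 (29.4%) scored under 10 in each, and 2 of the 7 in the group did. miR-3070 was the only one of the group below 0, at -4.7.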

How the data were processed

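Reads of E9.5 WT hearts were mapped to mm9 with miRDeep2 by the authors, separately for each of the 2 replicates, and the authors deposited raw read counts of each known precursor (all, mature, loop and star reads) without normalization, with the deposited miRDeep2 score, a log-odds score. Versions of miRDeep2 and miRBase and the trimming are not given in the sources used here.

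Precursors of the replicates were paired where they overlapped by at least 50% on the same strand. Their sequences were identical to NCBIM37, and coordinates count from 1. Names here give the arm that holds the mature reads, also where the tables name its opposite. Mature reads were divided by their sum over all listed precursors of each replicate, 4942257 and 4806179, in which repeated listings of a miRNA each count. A minimum of 20 mature reads in sum was set for the exact binomial test, and of 20 reads on both arms together in each replicate for Fisher's exact test, both two-sided with Benjamini-Hochberg adjustment over all precursors, and both were tested on simulated data. edgeR 4.0.16 (TMM) and DESeq2 1.42.0 gave scaling factors only. Python 3.11.15, scipy 1.17.1, R 4.3.3 and RNAfold 2.7.2 were used. RefSeq sequences are of GRCm38.p6.

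Every member is accounted for, in full where both replicates had 1000 or more mature reads. Other miRNAs are named as neighbours in rank, as sharing a seed or as markers of cell types from general knowledge. Members and lists were chosen with earlier results of these data known. Alternatives used other scalings, all reads, each mature sequence once, other minimums, and single replicates.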

Additional observations from a re-analysis of the deposited data

How the results depend on the processing

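The summed share of 2.0% rose to 2.74% when each mature sequence was counted once, because repeated entries of other miRNAs leave the total, and the ratio of the group to the Mirg side rose from 0.232 to 0.339 with that count. Without miR-370-3p the summed share was 0.769%. Single replicates gave 1.95% to 2.05% for the summed share and 98.45% to 99.01% for the median mature arm. Scaling by TMM or DESeq2 size factors turned miR-370-3p from 0.03 to -0.03 and -0.04, and miR-493-3p (exact adjusted p 0.1 and 0.15) and miR-540-3p (0.26 and 0.4) lost their call. Counting all reads raised the shares of miR-673 to 0.0301% and miR-493 to 0.0398%. Leaving out precursors with opposite mature arms in the replicates, added after seeing the data, left 7 of the 9 members called. No paired analysis was possible because there is 1 group of 2 samples. A single replicate allows no test between replicates. Depth limits miR-3070, at 3 mature reads, and the star arms of miR-341, miR-665 and miR-1188.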
